A study of Homo sapiens with 9 samples.

Results

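The 9 genes described here are components and regulators of the complement system, C3, CFB, C1R, C1S, CFI, SERPING1, CD46, CD55 and CD59, chosen by name from the 58735 genes of the count table. RNA-seq was carried out on OVCAR4, a human cell line of ovarian serous adenocarcinoma, 6 libraries of which carried an MPZL3 knockdown. Of the 9 libraries, 3 came from cells given a scramble short hairpin RNA (scr control, genotype labelled WT), 3 from cells given shMPZL3 #1 and 3 from cells given shMPZL3 #2. The hairpins were delivered by lentivirus, and every group, controls included, underwent 3 days of puromycin selection. The study's methods name 3 biological replicates for each condition. MPZL3 is a predicted cell adhesion molecule, and the comparisons ask how its loss changed the transcriptome of these cells. RNA came from the selected population as a whole, in which the depth of knockdown in single cells was not measured.

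Complement is a cascade of plasma and cell surface proteins that marks cells for phagocytosis, draws leukocytes and can form a lytic pore. The classical pathway starts when C1q binds an antibody or a surface and the proteases C1R and C1S cut the next components. C3 is the point at which the pathways meet, and CFB supplies the protease of the alternative pathway, which amplifies C3 cleavage. SERPING1 (C1 inhibitor) blocks C1R and C1S, CFI cuts C3b and C4b with the help of cofactors, and CD46, CD55 and CD59 sit on the cell membrane and protect the cell's own surface. Most circulating complement is made in the liver, while epithelial cells can also make C3 and CFB.

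Library totals were 15040102 to 27835841 counts, and 16928 genes passed the count filter, all 9 members among them. MPZL3 itself lay at 26.1, 29.8 and 28.6 CPM (counts scaled to the normalized library total) in the scr control libraries. It lay at 5.79, 6.97 and 5.99 CPM with shMPZL3 #1 and at 13.9, 18.5 and 13.2 CPM with shMPZL3 #2. MPZL3 was lower in each of the 6 knockdown libraries than in any control library, and less so with shMPZL3 #2, whose level exceeded that of shMPZL3 #1 by 1.28 on the log2 scale (edgeR quasi-likelihood test, adjusted p = 5.72e-05). Of the 8 epithelial and ovarian carcinoma markers examined, 7 passed the filter and 0 were called in the grouped comparison (lowest edgeR adjusted p = 0.0573, for CDH1), with a summed level of 4940 to 5200 CPM in the scr control, while WT1 had 3 to 13 counts. With shMPZL3 #1 alone CDH1, KRT7 and PAX8 rose by 0.41, 0.35 and 0.29 on the log2 scale and MUC16 fell by 0.61 (edgeR adjusted p = 0.00256, 0.0325, 0.0406 and 0.00739). Values throughout are levels in whole cell populations, in which fewer cells with a transcript and less transcript per cell cannot be told apart.

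The regulatory sequence upstream of CFB is shown because CFB was one of the members that rose, and that upstream of CD59 because it carries 2 of the motifs found in CFB. Both are the 250 bases before a RefSeq transcript start on GRCh38.p14. CFB lies at chr6:31945845-31946094 on the plus strand, and CD59 at chr11:33736480-33736729 on the minus strand. Capitals mark matches to 3 motifs searched on both strands, the core of the interferon-stimulated response element (ISRE, GAAANNGAA), the STAT site called GAS (TTCNNNGAA) and an NF-kB site (GGNNNTTCC).
CFB: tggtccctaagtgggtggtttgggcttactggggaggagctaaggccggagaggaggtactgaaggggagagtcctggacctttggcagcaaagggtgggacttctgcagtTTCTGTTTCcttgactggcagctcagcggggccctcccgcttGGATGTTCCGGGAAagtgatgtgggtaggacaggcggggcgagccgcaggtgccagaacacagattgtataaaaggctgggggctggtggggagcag
CD59: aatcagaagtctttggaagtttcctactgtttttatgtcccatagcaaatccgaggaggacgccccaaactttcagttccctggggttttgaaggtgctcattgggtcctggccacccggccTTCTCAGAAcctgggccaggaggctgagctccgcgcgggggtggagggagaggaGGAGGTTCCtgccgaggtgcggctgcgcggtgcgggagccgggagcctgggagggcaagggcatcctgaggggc
In CFB the ISRE core match reads TTCTGTTTC on the opposite strand and begins at position -139 relative to the start. The NF-kB match GGATGTTCC begins at -97 and the GAS match TTCCGGGAA at -92, so that these share bases. In CD59 the GAS match TTCTCAGAA begins at -128 and the NF-kB match GGAGGTTCC at -74. Of 35116 promoter windows in the RefSeq table, 6.88% held the ISRE core, 6.57% the GAS motif and 17.1% the NF-kB motif. Windows were present for 6 of the 9 members (CFB, C1R, CFI, CD46, CD55 and CD59). The ISRE core was found in 1 of these genes, the GAS motif in 3 (CFB, C1R and CD59) and the NF-kB motif in 2. These are counts of genes, and C1R, CD46 and CD59 had several windows, whereas the percentages are per window. Gene counts and percentages are therefore not like measures. Not every window of C1R and CD59 held a match, and the CD59 matches recur in an overlapping window. The windows of CFI, CD46 and CD55 held none of these letters, and no binding was measured in these cells.

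With both hairpins grouped, 3 of the 9 members rose and 0 fell. These were C3, the central component, CFB, the alternative pathway protease, and SERPING1, the C1 inhibitor. Across all tested genes 9.36% were called higher and 6.4% lower in this comparison. The members were chosen with earlier results of these data known, so setting them beside all genes is a description only. The median log2 fold change of the members was 0.31, against 0.02 over all genes. For C3, CFB and SERPING1 each of the 6 knockdown libraries lay above each of the 3 control libraries, a pattern that 11.8% of all tested genes showed, while no member lay wholly below, against 11% of all genes. DESeq2 called 3 members higher and 1 (CD46) lower, where it called 2047 of all 16928 tested genes higher and 1498 lower. Without scr control replicate 1, 2 or 3 the count of called members was 1 (C3), and the count over all genes fell from 2667 to 625, 962 and 1238.

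**Figure D1:**
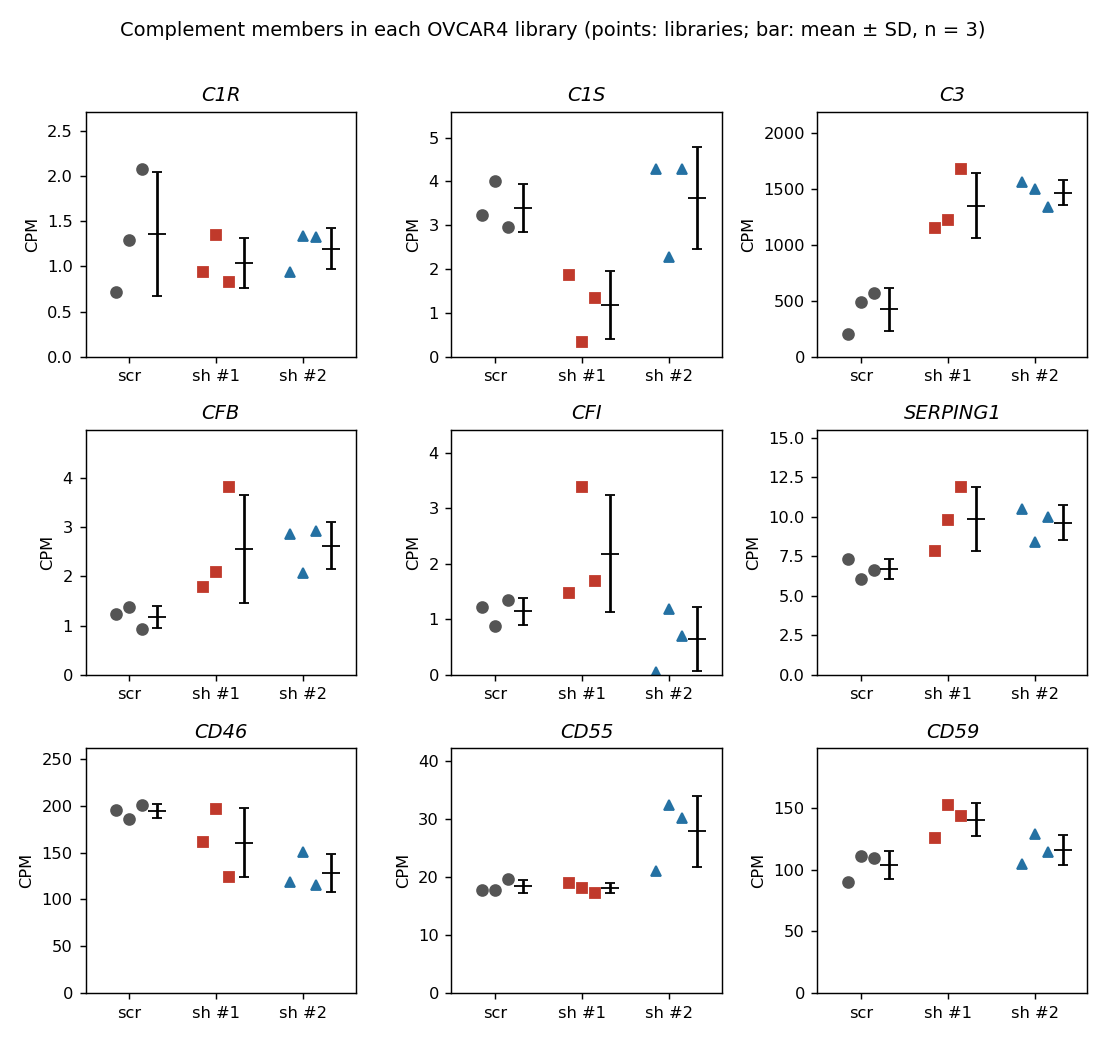
Level of each complement member in CPM (vertical axes, linear, from 0) in the 3 scr control (circles), 3 shMPZL3 #1 (squares) and 3 shMPZL3 #2 (triangles) libraries, with the mean ± SD of each group beside the points. C3, CFB and SERPING1 sit higher in all 6 knockdown libraries, C1S is low with shMPZL3 #1 only, and CD55 is high with shMPZL3 #2 only.

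C3 is encoded at chr19:6677704-6730562 on the minus strand (hg38) and was the most abundant member in every group. Its level was 207, 486 and 574 CPM in the scr control (3200, 10590 and 8578 counts). With shMPZL3 #1 it was 1150, 1220 and 1680 CPM, and with shMPZL3 #2 it was 1560, 1500 and 1340 CPM. The control libraries spread widely, replicate 1 being the lowest, and the 6 knockdown libraries all lay above them, while the hairpin groups overlapped each other. Group means were 423 ± 192 CPM (SD, n = 3), 1350 ± 288 CPM (SD, n = 3) and 1470 ± 116 CPM (SD, n = 3). The grouped log2 fold change was 1.74 (SE 0.26, 95% confidence interval 1.19 to 2.29), a 3.33-fold rise (edgeR, adjusted p = 0.00114, two-sided exact permutation p = 0.0119, the smallest that 6 against 3 libraries allow). Each hairpin gave a similar value, 1.68 (adjusted p = 0.000111) for shMPZL3 #1 and 1.79 (adjusted p = 0.000113) for shMPZL3 #2, both from edgeR and against the same control libraries. The difference between the hairpins was 0.12 with an interval of -0.39 to 0.63 on the log2 scale. The call held under all 16 alternatives, with log2 fold changes of 1.40 to 2.01, the lowest without scr control replicate 1.

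The rise moved C3 further up the order of transcript levels, in which it already ranked high in the control. Ranked by CPM per kilobase of exons among 19938 protein-coding genes, C3 stood between rank 541 and rank 1832 in the scr control libraries and between rank 93 and rank 190 in the knockdown libraries. C3 made up 39.5% to 62.5% of the counts of all 9 members in the control libraries and 76.1% to 85.6% in the knockdown libraries.

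CFB (chr6:31945650-31952084, plus strand) was a low transcript. Its counts were 19, 30 and 14 in the scr control, 40, 43 and 83 with shMPZL3 #1 and 58, 42 and 80 with shMPZL3 #2. In CPM these were 1.23, 1.38 and 0.937 in the control, 1.78, 2.08 and 3.82 with shMPZL3 #1 and 2.86, 2.07 and 2.93 with shMPZL3 #2. No knockdown library reached down to the control range. The grouped log2 fold change was 1.12 (SE 0.31, interval 0.45 to 1.79, edgeR adjusted p = 0.0291), and the hairpins singly gave 1.10 (adjusted p = 0.0229) and 1.13 (adjusted p = 0.0352). The grouped call was lost without scr control replicate 1, 2 or 3 (edgeR adjusted p = 0.113, 0.0761 and 0.117), each time with a log2 fold change of 0.98 to 1.25. With shMPZL3 #1 alone it was lost without scr control replicate 1 or 3 or shMPZL3 #1 replicate 3 (edgeR adjusted p = 0.0582, 0.0859 and 0.174), and the last of these brought the value to 0.69. With shMPZL3 #2 alone it was lost without any scr control replicate, without shMPZL3 #2 replicate 1 and without replicate 3 (edgeR adjusted p = 0.0675 to 0.122). Of CFB's exonic bases, 45.5% are also exonic in C2 or in the readthrough gene AL645922.1. C2, a neighbouring complement gene that held 39.9% as many counts as CFB, had a grouped log2 fold change of -0.13 (interval -1.11 to 0.86).

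SERPING1 (chr11:57597387-57614853, plus strand) lay at 7.32, 6.06 and 6.63 CPM in the scr control. It lay at 7.85, 9.77 and 11.9 CPM with shMPZL3 #1 and at 10.5, 8.40 and 10.0 CPM with shMPZL3 #2. The lowest knockdown library exceeded the highest control library by a narrow margin. The grouped log2 fold change was 0.55 (SE 0.17, interval 0.19 to 0.91, edgeR adjusted p = 0.0413), a 1.46-fold rise. That call was lost in 9 of 16 alternatives, with log2 fold changes that stayed between 0.48 and 0.62. Among these were the removal of any scr control replicate, of shMPZL3 #1 replicate 2 or 3 and of shMPZL3 #2 replicate 1 or 3 (edgeR adjusted p = 0.0542 to 0.172). With shMPZL3 #1 alone the value was 0.56 (edgeR adjusted p = 0.0265, lost without scr control replicate 2 or 3 at 0.109 and 0.0715 and without shMPZL3 #1 replicate 3 at 0.145). With shMPZL3 #2 alone it was 0.54 (edgeR adjusted p = 0.0576, past the threshold in 6 of 16 alternatives, among them the removal of shMPZL3 #1 replicate 1 or 3 or shMPZL3 #2 replicate 2 at 0.0372, 0.0417 and 0.0375).

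**Figure D2:**
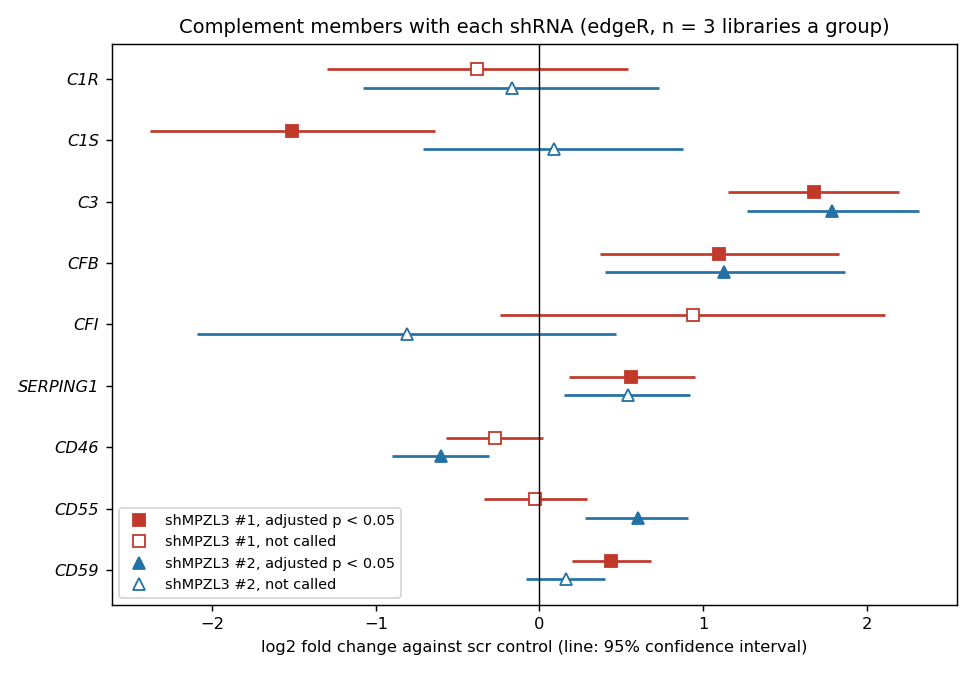
Log2 fold change of each complement member against the scr control (horizontal axis) for shMPZL3 #1 (squares) and shMPZL3 #2 (triangles), with 95% confidence intervals as lines. Filled symbols passed an adjusted p of 0.05. C3 and CFB are filled for both hairpins, whereas C1S, SERPING1 and CD59 are filled for shMPZL3 #1 only and CD46 and CD55 for shMPZL3 #2 only.

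With shMPZL3 #1 alone 4 members rose (C3, CFB, SERPING1 and CD59) and 1 fell (C1S), where 16.8% of all tested genes were higher and 15.3% lower. For shMPZL3 #2, 3 members rose (C3, CFB and CD55) and 1 fell (CD46), where 9.36% of all genes were higher and 5.8% lower. Both comparisons share the 3 scr control libraries. In the direct test of shMPZL3 #2 against shMPZL3 #1, 2 members were higher with #2 (C1S and CD55) and 1 was lower (CFI). Over all genes, 7.56% were higher and 7.56% lower in that test. With 3 libraries against 3 the exact permutation test cannot go below p = 0.1, a value reached by each of these 3 members. The 5 calls for shMPZL3 #1 became 3 without scr control replicate 1 or 3 or shMPZL3 #1 replicate 3. In these fits the calls over all genes fell from 5423 to 3784, 4394 and 3696. The 4 calls for shMPZL3 #2 became 2 without scr control replicate 1 or 2 and 1 without shMPZL3 #2 replicate 3. Over all genes these fell from 2567 to 1398, 1579 and 1366. The 3 calls between the hairpins became 1 without shMPZL3 #2 replicate 1 and 0 without shMPZL3 #2 replicate 3. Over all genes these fell from 2559 to 1647 and 1469.

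C1S, the C1 protease that cuts C4 and C2, lies at chr12:6988259-7071032 on the plus strand. Its level was 3.24, 4 and 2.95 CPM in the scr control, 1.87, 0.339 and 1.34 CPM with shMPZL3 #1 and 4.29, 2.27 and 4.28 CPM with shMPZL3 #2. All shMPZL3 #1 libraries were below both other groups, replicate 2 with only 7 counts. The log2 fold change was -1.51 with shMPZL3 #1 (SE 0.41, edgeR adjusted p = 0.00998) and 0.09 with shMPZL3 #2 (interval -0.71 to 0.88). The hairpins differed by 1.60 (SE 0.41, edgeR adjusted p = 0.0135), a call lost without shMPZL3 #2 replicate 1 (0.051) or replicate 3 (0.0584). Only 3.54% of its exonic bases are shared, with EMG1, a gene holding 1390% as many counts as C1S, and the opposite-strand gene LPCAT3 overlaps the locus with 599% as many.

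C1R, the partner protease of C1S (chr12:7080199-7092607, minus strand), was called in none of the 4 comparisons. It had 11, 28 and 31 counts in the scr control, 21, 28 and 18 with shMPZL3 #1 and 19, 27 and 36 with shMPZL3 #2. All 3 groups overlapped, and the grouped interval ran from -1.06 to 0.51 on the log2 scale, which leaves out neither a fall nor a modest rise. The adjoining C1RL, whose exons hold 11.4% of C1R's exonic bases, had 1280% as many counts.

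CFI (chr4:109740694-109802179, minus strand) had 19, 19 and 20 counts in the scr control, 33, 70 and 37 with shMPZL3 #1 and 1, 24 and 19 with shMPZL3 #2. In CPM these were 1.23, 0.873 and 1.34, then 1.47, 3.39 and 1.70, then 0.0493, 1.19 and 0.695. Against the control neither hairpin was called, with values of 0.94 (interval -0.24 to 2.11) and -0.81 (interval -2.09 to 0.47). CFI was lower with shMPZL3 #2 than with shMPZL3 #1, by -1.75 on the log2 scale (SE 0.57, edgeR adjusted p = 0.0489). This call was lost in 8 of 15 alternatives, including without shMPZL3 #2 replicate 1, the library with 1 count (-1.25, edgeR adjusted p = 0.101), and without shMPZL3 #1 replicate 2, the highest (-1.29, edgeR adjusted p = 0.217). Removing any scr control replicate (edgeR adjusted p = 0.0541, 0.0587 and 0.0591), shMPZL3 #1 replicate 3 (0.0703) or shMPZL3 #2 replicate 3 (0.106) also ended it. The readthrough gene AC126283.2 shares 32% of CFI's exonic bases and had 0 counts.

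Among the membrane regulators CD46 fell and CD55 rose with shMPZL3 #2, and CD59 rose with shMPZL3 #1. CD46, a cofactor for CFI (chr1:207752057-207795513, plus strand), lay at 195, 186 and 201 CPM in the scr control, 161, 197 and 124 CPM with shMPZL3 #1 and 118, 151 and 115 CPM with shMPZL3 #2. Every shMPZL3 #2 library was below the control range, while shMPZL3 #1 overlapped it. The fall was 0.658-fold of control with shMPZL3 #2 (log2 fold change -0.60, SE 0.14, edgeR adjusted p = 0.00793, lost without shMPZL3 #2 replicate 3 at 0.061). With shMPZL3 #1 the value was -0.27 (edgeR adjusted p = 0.152, 0.0184 without its replicate 2). Grouped, it was -0.43 (edgeR adjusted p = 0.0713), and 4 of 16 alternatives took it past the threshold, including DESeq2 (adjusted p = 0.0449) and the removal of shMPZL3 #1 replicate 2 (edgeR adjusted p = 0.0125). The difference between the hairpins was -0.33 (interval -0.63 to -0.03) and was not called (edgeR adjusted p = 0.127). It passed the threshold without shMPZL3 #1 replicate 3 (edgeR adjusted p = 0.022) and without shMPZL3 #2 replicate 2 (edgeR adjusted p = 0.0368).

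CD55 (chr1:207321376-207386804, plus strand) speeds the decay of the C3 convertases. It lay at 17.8, 17.8 and 19.7 CPM in the scr control, 19.0, 18.1 and 17.2 CPM with shMPZL3 #1 and 21.0, 32.5 and 30.2 CPM with shMPZL3 #2. The control and shMPZL3 #1 libraries fell in a single narrow range, and all shMPZL3 #2 libraries were above it. The log2 fold change was -0.03 (interval -0.34 to 0.29) with shMPZL3 #1 and 0.60 (SE 0.15, edgeR adjusted p = 0.0119) with shMPZL3 #2. The hairpins differed by 0.62 (SE 0.15, edgeR adjusted p = 0.00938), lost without shMPZL3 #2 replicate 3 (0.0515). The shMPZL3 #2 call was lost without scr control replicate 1 or 2 (0.0533 and 0.0568) or shMPZL3 #2 replicate 3 (0.0581).

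CD59 (chr11:33703010-33736491, minus strand) blocks assembly of the lytic pore. Its level was 90.6, 111 and 110 CPM in the scr control, 126, 153 and 144 CPM with shMPZL3 #1 and 105, 129 and 115 CPM with shMPZL3 #2. Only shMPZL3 #1 stood clear of the control, with a log2 fold change of 0.44 (SE 0.11, edgeR adjusted p = 0.00684, and 0.051 without scr control replicate 1). The value was 0.16 (interval -0.08 to 0.40) with shMPZL3 #2 and 0.31 (edgeR adjusted p = 0.114) for both grouped. The difference between the hairpins was -0.28 (interval -0.52 to -0.04, edgeR adjusted p = 0.103, and 0.0431 without shMPZL3 #1 replicate 1).

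To compare levels between genes, CPM was divided by the exonic length of each gene. In the scr control the order was C3 (50.7 ± 23.0 CPM per kilobase, SD, n = 3), CD46 (22.3 ± 0.835), CD59 (10.0 ± 1.12), CD55 (3.12 ± 0.183), SERPING1 (1.85 ± 0.174) and C1S (0.525 ± 0.0839). CFB (0.236 ± 0.0449), CFI (0.235 ± 0.05) and C1R (0.231 ± 0.116) followed with ranges that overlapped. C3 reached 162 ± 34.6 CPM per kilobase with shMPZL3 #1 and 176 ± 14.0 with shMPZL3 #2, while the order of CD46, CD59, CD55 and SERPING1 stayed as in the control. With shMPZL3 #1 the neighbours CD46 and CD59, CD55 and SERPING1, CFB and CFI, and C1S and C1R overlapped. With shMPZL3 #2 the neighbours C1S and CFB, and C1R and CFI, overlapped. Counting only exonic bases in no other gene, the control level was 0.434 CPM per kilobase for CFB and 0.346 for CFI. Reads in shared bases may have been given to either gene or to neither, since the counting option is not given in the sources used here.

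The ratio of C3 to the sum of CD46, CD55 and CD59, all in CPM per kilobase, was 0.728, 1.66 and 1.86 in the scr control libraries. It was 4.07, 3.63 and 6.50 with shMPZL3 #1 and 6.88, 5.12 and 5.46 with shMPZL3 #2. The lowest knockdown library thus exceeded the highest control library in this ratio of transcript levels, which was not tested separately from C3. Within the membrane regulators CD46 held 60.9% to 65.6% of the summed level in the control, 45.8% to 55.9% with shMPZL3 #1 and 45.0% to 49.6% with shMPZL3 #2.

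**Figure D3:**
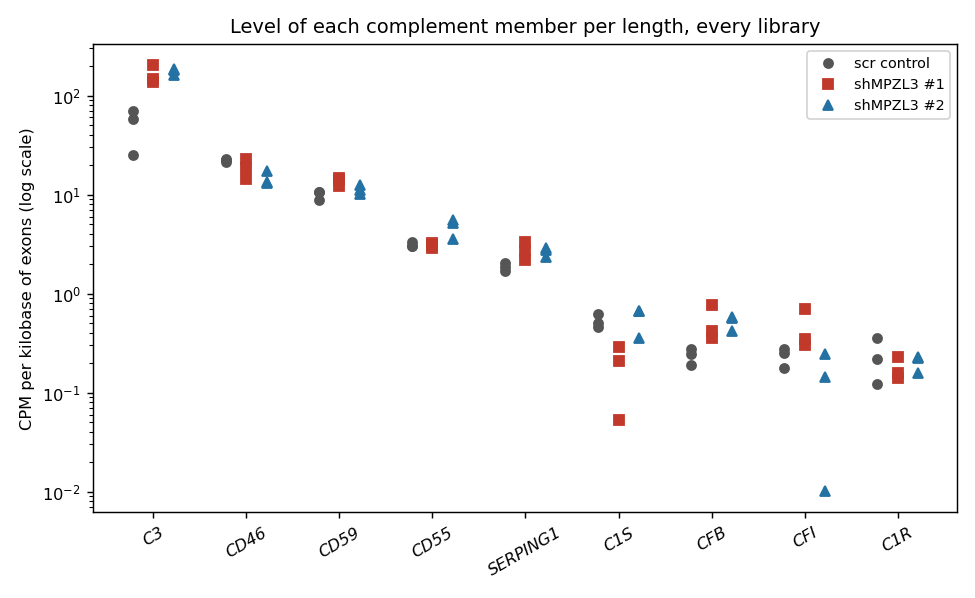
Level of each member in CPM per kilobase of exons (vertical axis, log scale) in every library, grouped by hairpin. C3 lies above all other members in every library, and the 3 membrane regulators CD46, CD59 and CD55 lie above the remaining 5 members in the control libraries.

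The wider complement pathway was examined in a list of 49 other genes, of which 14 passed the filter. The other 35 had at most 18 counts in any library, and 13 of them had 0 counts in all 9 libraries, including the C1q chains C1QA, C1QB and C1QC. In the grouped comparison 4 of the 14 rose and 0 fell, where 9.36% of all tested genes were higher and 6.4% lower. DESeq2 called 4 of the 14 higher and 1 lower, where it called 2047 of all 16928 tested genes higher and 1498 lower. The median log2 fold change of the 14 was 0.58, against 0.02 over all genes. This list, too, was chosen with earlier results of these data known, so these values only describe it. The genes that rose were the receptor CR2, the chains ITGAM and ITGB2 of complement receptor 3, and the protease-like C1RL. With 3 to 15 counts in the scr control, ITGAM passed the count filter only through the knockdown libraries, where it was high. Its place in the counts and the median given here is therefore no support for a rise. With shMPZL3 #1, 8 rose and 2 fell, where 16.8% of all genes were higher and 15.3% lower. With shMPZL3 #2, 3 rose and 0 fell, where 9.36% of all genes were higher and 5.8% lower. The 4 grouped calls became 1, 2 and 1 without scr control replicate 1, 2 and 3. Calls over all genes fell from 2667 to 625, 962 and 1238 in the same fits.

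ITGB2 rose from 12.9, 21.5 and 25.2 CPM in the scr control to 40.7, 56.0 and 70.6 CPM with shMPZL3 #1 and 42.0, 43.5 and 45.4 CPM with shMPZL3 #2. No knockdown library overlapped the control, and the grouped log2 fold change was 1.32 (SE 0.22, edgeR adjusted p = 0.0021), called in all 16 alternatives. Its partner ITGAM had 3 to 15 counts in the control and 20 to 46 in the knockdown libraries, a log2 fold change of 2.01 (edgeR adjusted p = 0.0109, lost without scr control replicate 1 at 0.0723 or replicate 3 at 0.0517). CR2 rose by 1.13 (edgeR adjusted p = 0.0283) from 16 to 26 counts in the control to 44 to 85 in the knockdown libraries. Removing scr control replicate 1, 2 or 3 ended that call (0.0546, 0.13 and 0.106). C1RL rose by 0.44 (edgeR adjusted p = 0.0378), a call lost in 8 of 16 alternatives, among them the removal of any scr control replicate (0.124, 0.128 and 0.151), of shMPZL3 #1 replicate 1 or 3 (0.0629 and 0.0538) or of shMPZL3 #2 replicate 1 or 3 (0.0641 and 0.0539).

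**Figure D4:**
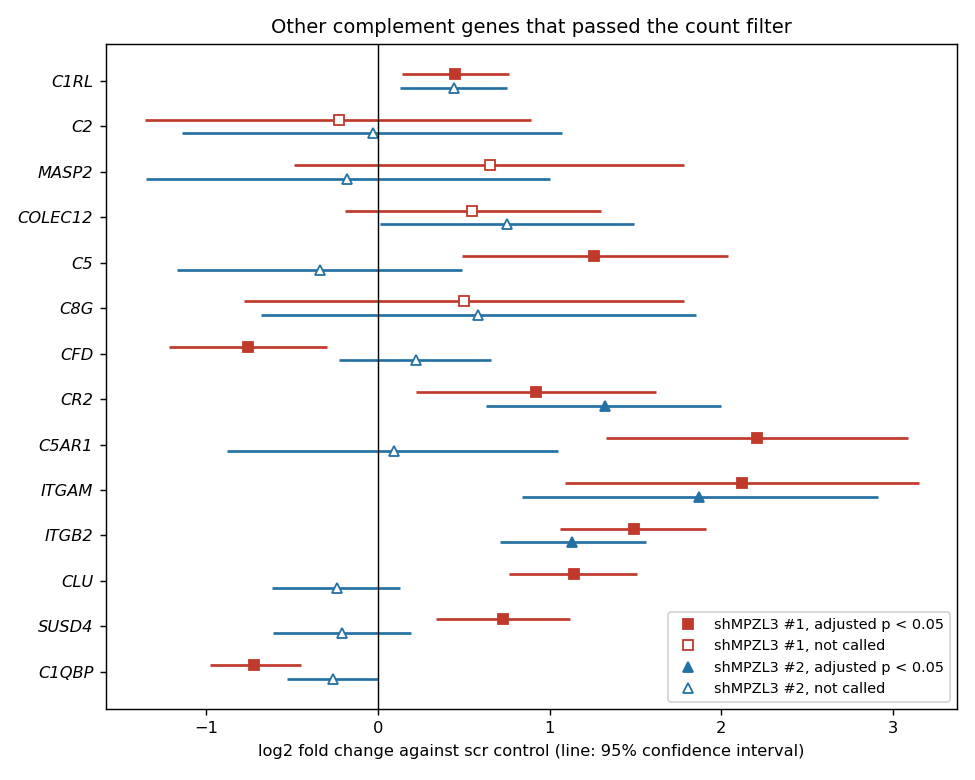
Log2 fold change against the scr control (horizontal axis) of the 14 other complement genes that passed the count filter, for shMPZL3 #1 (squares) and shMPZL3 #2 (triangles), with 95% confidence intervals as lines and filled symbols at an adjusted p under 0.05. CR2, ITGAM and ITGB2 are filled to the right for both hairpins, and C5AR1, CLU, C5, SUSD4 and C1RL for shMPZL3 #1 only.

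The hairpins differed in 6 of the 14 genes, 2 higher and 4 lower with shMPZL3 #2, where 7.56% of all genes were higher and 7.56% lower. These 6 were named after their values were seen. C5, the precursor of the C5a peptide, had 56 to 65 counts with shMPZL3 #1 and 13 to 35 in both other groups together, and the difference was -1.60 (edgeR adjusted p = 0.00712). C5AR1, the receptor for C5a, had 43 to 87 counts with shMPZL3 #1 and 8 to 22 in the others, a difference of -2.12 (edgeR adjusted p = 0.00195). Transcripts for both the ligand precursor and its receptor were thus higher with shMPZL3 #1 than in the other groups. Their levels were low there too, with means of 2.81 CPM (C5) and 2.8 CPM (C5AR1). The C5 call for shMPZL3 #1 against the scr control (edgeR adjusted p = 0.0146) was lost in 2 of 16 alternatives. The terminal pathway inhibitor CLU differed by -1.38 (edgeR adjusted p = 8.22e-05) and SUSD4 by -0.94 (edgeR adjusted p = 0.00262). CFD, the protease that activates CFB, was higher with shMPZL3 #2 by 0.98 (edgeR adjusted p = 0.00539) and C1QBP by 0.45 (edgeR adjusted p = 0.0226, lost without shMPZL3 #1 replicate 2 or 3 or shMPZL3 #2 replicate 1 at 0.0838, 0.0892 and 0.109).

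Markers of other cell types were set beside these results. Across all tested genes 9.36% were called higher and 6.4% lower in the grouped comparison. Of 9 leukocyte markers, 4 passed the filter, of which 3 rose in the grouped comparison (CD14, CSF1R and ITGAM) and PTPRC was not called. Counts were low for CD14 (3 to 34) and ITGAM (3 to 46). The other 5 markers (CD163, TYROBP, C1QA, C1QB and C1QC) were at 0 counts in all 9 libraries. The summed level of the 9 leukocyte markers was 2.72 to 4.87 CPM in the scr control, 6.82 to 10.1 CPM with shMPZL3 #1 and 6.75 to 9.14 CPM with shMPZL3 #2. Of 6 fibroblast markers, 3 passed the filter, of which 2 rose (COL1A1 and LUM). COL1A2 was not called (log2 fold change 1.14, edgeR adjusted p = 0.0691), and DCN was at 0. The fibroblast sums were 18.5 to 22.6 CPM in the control, 42.5 to 62.0 CPM with shMPZL3 #1 and 33.8 to 37.8 CPM with shMPZL3 #2. Of 5 hepatocyte markers, 1 passed the filter and fell (APOA1), and 3 (TTR, FGB and HP) were at 0. The hepatocyte sums were 4.49 to 5.97 CPM in the control and 1.73 to 2.81 CPM in the knockdown libraries. None of 3 endothelial markers changed in the grouped comparison, with sums of 8.09 to 9.87 CPM in the control, 7.31 to 8.80 CPM with shMPZL3 #1 and 12.4 to 16.1 CPM with shMPZL3 #2. The part of these transcripts in the complement values was not tested. ITGAM stands both among the leukocyte markers and among the complement pathway genes that rose.

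The genes whose levels ran most like each member over the 9 libraries were found by Pearson correlation of log2 CPM among 11909 protein-coding genes. For C3 they were the chemokine CXCL16 (r = 0.996), the adhesion receptor ADGRB2 (r = 0.992) and the macrophage growth factor CSF1 (r = 0.991), whose grouped log2 fold changes were 0.98, 1.10 and 1.77. The nearest genes were DAGLB for CFB (r = 0.987), FAM214B for SERPING1 (r = 0.96), PES1 for C1S (r = 0.982) and SLC2A12 for CD59 (r = 0.996). They were SDAD1 for CD46 (r = 0.979), NPNT for CD55 (r = 0.96), FBXW11 for CFI (r = 0.959) and NFIL3 for C1R (r = 0.924). Each is the highest of many values over libraries that share 3 groups, and is given as a description only. GPR108, which overlaps the start of the minus-strand gene C3 at chr19:6729914-6730562, held 6.13% as many counts as C3, and their exons share no bases.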

How the data were processed

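Poly-A selected, non-directional libraries of 9 OVCAR4 samples were sequenced by the authors. Per the submitters' processing notes, HISAT2 2.0.5, featureCounts 1.5.0-p3 and hg38 were used. The deposited values are raw counts per gene, with no normalization. The annotation is not named in the sources used here, but all 58735 genes matched GENCODE 29 (Ensembl 94) in position, name and exonic length.

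Counts were analysed with edgeR 4.0.16 with limma 3.58.1 in R 4.3.3 (glmQLFit and glmQLFTest, two-sided, TMM scaling, filterByExpr) in a fit of 6 knockdown against 3 control libraries, grouped as in the study's methods, and in a 3-group fit for the single hairpins and their difference. The Benjamini-Hochberg adjustment covered all 16928 genes tested, and an adjusted p under 0.05 was a call. SE is the log2 fold change divided by the root of F, and intervals are 95%. Exact permutation tests used log2 CPM with a prior count of 2. The fit was tested on simulated data with known changes. Alternatives were DESeq2 1.42.0, other scalings and filters, a replicate block and leaving out each library. The levels per unshared exonic base and the repeats for the pathway genes were added after seeing the data.

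Members and lists were chosen with earlier results of these data known. Genes named beside the members were MPZL3, pathway genes called grouped or with both hairpins in one direction, the genes most alike in level (3 for C3, 1 for each other) above a mean log2 CPM of 1, and overlapping genes with over 5% of a member's counts. A further 6 pathway genes that differed between the hairpins, and the markers and readthrough genes named, were picked outside this rule. Replicate libraries differed by more than sampling noise (chi-square per gene 3.079 to 23.21), and no library was counted as a repeat. At these depths 3 counts correspond to 0.1098 to 0.2008 CPM, the limit of detection from counting error only. OVCA433 libraries were not analysed here, and 1 gene of the pathway list is not reported here.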

Additional observations from a re-analysis of the deposited data

Results flagged for a closer look

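In 3 members the effect of the hairpins differed from each other by the edgeR test of the difference itself. Over all genes, 7.56% were higher and 7.56% lower with shMPZL3 #2 in that test. The CFI call (edgeR adjusted p = 0.0489) was lost in 8 of 15 alternatives. Without shMPZL3 #2 replicate 3 the count of called members was 0, and that over all genes fell from 2559 to 1469. C1S was higher with shMPZL3 #2 than with shMPZL3 #1 by 1.60 on the log2 scale (3.61 ± 1.16 against 1.18 ± 0.778 CPM, SD, n = 3 each, every #2 library above every #1 library). CD55 was higher with shMPZL3 #2 by 0.62 (27.9 ± 6.06 against 18.1 ± 0.906 CPM, SD, n = 3 each, every #2 library above every #1 library). CFI was lower with shMPZL3 #2 by -1.75 on the log2 scale (0.643 ± 0.570 against 2.19 ± 1.05 CPM, SD, n = 3 each, every #2 library below every #1 library). The depth of the MPZL3 knockdown also differed between the hairpins (0.222-fold of control with #1 and 0.539-fold with #2), and its part in these differences cannot be told apart from that of the hairpin sequence.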

How the results depend on the processing

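C3 kept its call and direction under all 16 alternatives in the grouped and both single comparisons. Of 568 recomputed member values, 510 stayed on their side of the threshold, 39 lost a call, 19 gained one and 0 called values reversed. Averaging the hairpins in the 3-group fit in place of grouping raised the grouped calls from 2667 to 4677 for all genes, from 3 to 5 for members and from 4 to 7 for other pathway genes. Leaving out 1 library moved the grouped calls to between 625 (without scr control replicate 1) and 3187 for all genes, 1 and 3 for members and 1 and 4 for pathway genes, with 1 member (C3) left without any one scr control replicate. For shMPZL3 #1 these ranges were 3696 to 5816 genes, 3 to 6 members and 7 to 10 pathway genes. For shMPZL3 #2 they were 1366 to 3055 genes (lowest without its replicate 3) and 1 to 5 members. For shMPZL3 #2 against shMPZL3 #1 they were 1469 to 2953 genes (lowest without shMPZL3 #2 replicate 3) and 0 to 4 members. A minimum of 10 counts in every library left 7 members and 1 called between the hairpins, against 3. Over all genes 2570 were then called between the hairpins, against 2559. The labels link same-numbered libraries only by that number. Correlations of their deviations were -0.00143 to 0.218, with 3 of 9 pairs over 0.1. Of the 9 libraries, 5 matched their own number best in both other groups, and what same-numbered libraries share was not tested. With the replicate number as a block, the grouped member calls fell from 3 to 2 (SERPING1, edgeR adjusted p = 0.0552), and those over all genes from 2667 to 2424. CD46 and CD59 gained calls between the hairpins (edgeR adjusted p = 0.0359 and 0.0199). This made 5 members called between the hairpins, against 3, while the calls over all genes rose from 2559 to 3823. With shMPZL3 #2 against the scr control 5 pathway genes were called, against 3, and the calls over all genes rose from 2567 to 3680. For shMPZL3 #1 against the scr control the block raised the calls over all genes from 5423 to 6355. Unshared exon length moved the levels of CFB to 0.434, 0.939 and 0.961 CPM per kilobase in the scr control, shMPZL3 #1 and shMPZL3 #2, and of CFI in the control to 0.346; this was chosen after seeing the data. Where no cause is shown by the construction of an alternative, the cause was not tested. Low counts, from 1 to 117 per library, limit the precision of CFB, C1R, CFI and C1S.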
